A study of Homo sapiens with 18 samples.

Results

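The data described here are the expression values of the libraries labelled H446, 3 from control cells and 3 from cells harvested 24 h after 10 Gy of X-ray radiation, out of the 18 libraries of the series. The 3 control libraries were compared with the 3 irradiated ones over the 11479 of 18475 listed genes with a value of at least 1 in at least 3 of these 6 libraries. NCI-H446 (H446) is a human small cell lung cancer cell line. The series also holds A549, a lung adenocarcinoma cell line, and BEAS-2B, an immortalized bronchial epithelial cell line, each with 3 control and 3 irradiated libraries. All cells are labelled wild type and were kept in RPMI-1640 with fetal bovine serum, X-rays came from a linear accelerator, and no harvest time is given for the controls. The lines came from a cell bank, and nothing in the labels says that the replicates came from separate cultures, so that the p-values may measure only technical spread. The study asked how lung epithelial and lung cancer cells differ in their response to radiation.

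Dividing cells copy their DNA in S phase, check it in G2 phase and separate the copies in mitosis. Genes for replication are switched on by E2F transcription factors late in G1 phase, and genes for mitosis are switched on later by the complex of MYBL2, FOXM1 and the MuvB core. Cells with damaged DNA stop at checkpoints before S phase or before mitosis. The stop before S phase runs largely through p53 and its target CDKN1A, a cyclin-dependent kinase inhibitor, whereas the stop before mitosis runs through CHEK1 and WEE1, which hold back CDK1. Small cell lung cancer usually carries neuroendocrine markers.

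The neuroendocrine markers of small cell lung cancer were mostly low in these libraries. Of 12 markers, 10 had a row in the table, and only ENO2 and UCHL1, genes that many other cells express as well, had a mean of at least 1 FPKM (fragments per kilobase of transcript, scaled to the depth of the library). A mean under 0.1 FPKM was found for 4 of the 10, and the rest lay between 0.1 and 1 FPKM. CHGA (chromogranin A) reached 0.05 FPKM and NCAM1 (CD56) 0.01 FPKM in the highest of the 6 libraries, while NEUROD1 and INSM1 were not analysed here. KRT7, a keratin of simple epithelia, stood at 1332, 1309 and 1371 FPKM in the controls, and VIM, the intermediate filament of mesenchymal cells, at 985, 972 and 1013 FPKM. CDH1 (E-cadherin) was below 1 FPKM in every library, from 0.49 to 0.74 FPKM. These levels go against a neuroendocrine identity, so H446 stands below for the libraries that carry this label. Of 10 haematopoietic markers only CD68 reached a mean of 1 FPKM, and PTPRC (CD45) stayed at or below 0.09 FPKM. Of 11 fibroblast and endothelial markers, COL1A1, COL3A1, DCN, LUM and PECAM1 did, with a summed level of 27.11 to 30.04 FPKM in the controls and 32.9 to 33.7 after irradiation. The part of other cells in the results was not tested.

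The 6 libraries resembled each other closely, with a Pearson correlation of log2(FPKM + 1) across genes of 0.9983 to 0.9987 within a group and of 0.9955 to 0.9967 between the groups. The number of reads behind them is unknown, but the smallest steps between low values gave relative depths of 0.979 to 1.056, an estimate from only 21 short genes. Of the 11479 tested genes, 11092 reached 1 FPKM in all 6 libraries. At the edge of the filter, 121 genes reached it in exactly 3 libraries (median of their means 1.02 FPKM) and were kept, and 115 reached it in exactly 2 (0.917 FPKM) and were left out. Of the tested genes, 37 were at or over 1 FPKM in every control and in no irradiated library, and 8 the other way round.

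At an adjusted p under 0.05 (limma on log2(FPKM + 1)), 4407 genes were called, 38.4% of those tested: 1698 were higher after irradiation (14.8%) and 2709 lower (23.6%). In 2339 genes (20.4%) all irradiated libraries lay above all controls, and in 3435 (29.9%) below. Most of these differences were small. The median absolute log2 fold change of called genes was 0.24, and only 20 genes (7 higher, 13 lower) reached an absolute log2 fold change of 1. The balance of higher and lower calls depended on the scaling, as 38.5% of the called genes were higher on the deposited values, 44.7% after scaling the libraries to equal totals, 49.9% after quantile normalization and 51.6% after a correction for GC content.

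GC content, the share of G and C bases in a transcript, separated the libraries by treatment. Across 11380 genes, the Spearman correlation of a library's deviation with GC content ran from 0.347 to 0.459 over the controls and from -0.496 to -0.106 over the irradiated libraries, so that the groups did not overlap. Called genes that rose had a median GC content of 42.0%, those that fell 56.0%, and all tested genes 47.9%. The genes were split by GC content into 10 bins of near-equal numbers of genes. In the lowest bin (30.2 to 38.4%), 30.1% were called higher and 5.44% lower, whereas in the highest bin (61.3 to 74.7%), 1.58% were called higher and 55.1% lower. Because every control lay on the same side of this trend, a GC bias of the libraries and a response of GC-rich genes cannot be told apart. After subtraction of every library's own GC curve, 3516 of 11380 genes (30.9%) were called, 1813 higher (15.9%) and 1703 lower (15%), and 2669 genes kept the call and the direction that they had before (1247 higher, 1422 lower). Counts after this correction are therefore given below for most groups of genes.

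**Figure D1:**
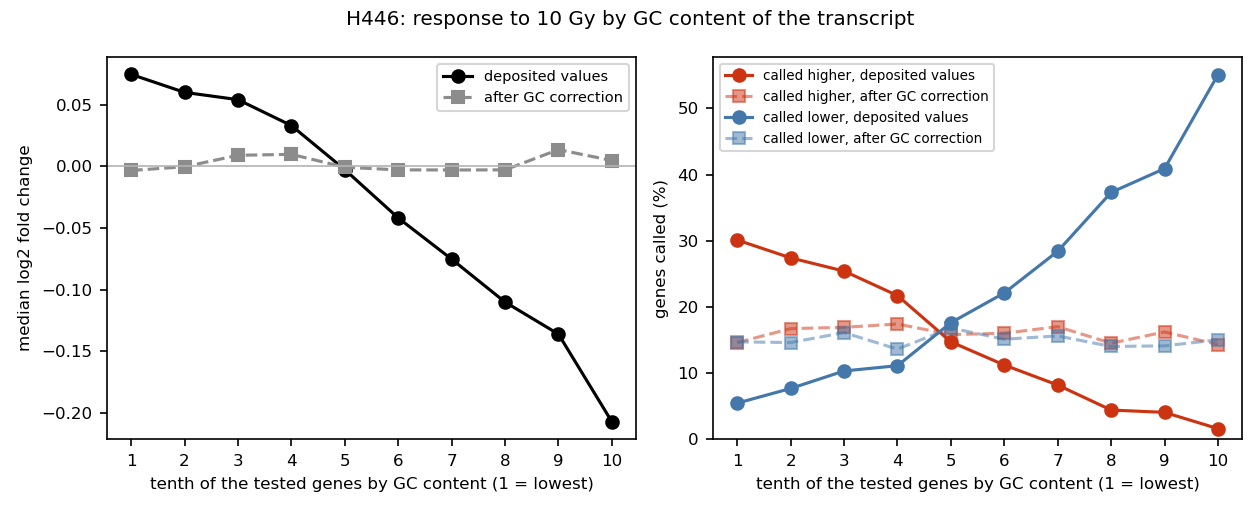
Response of the tested H446 genes by 10 bins of GC content that hold near-equal numbers of genes, from the lowest (1) to the highest (10). The left panel plots the median log2 fold change (10 Gy minus control), which ran from 0.07 in the lowest bin to -0.21 in the highest and stayed within 0.014 of 0 after the correction; the right panel plots the percentage of genes called higher and lower, with dashed lines for the corrected values.

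Mitotic genes made up 9 of the 12 largest rises among called genes with a mean of at least 10 FPKM in 1 group. Of 103 genes in 4 lists of mitotic entry, kinetochore, spindle and anaphase genes, all tested, 84 were called higher and 6 lower, against 14.8% and 23.6% of all tested genes. Their median log2 fold change was 0.55, against -0.03 over all genes. In 86 of them the irradiated libraries lay above all controls, beside 20.4% of all tested genes. After the GC correction, 89 were higher and 5 lower, with a median of 0.51. In these bulk values, a larger share of cells in G2 phase or mitosis and more mRNA per cell cannot be told apart.

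Entry into mitosis is driven by cyclin B and CDK1. CCNB1 (cyclin B1) stood at 95.3, 94.6 and 97.6 FPKM in the controls and at 184, 194 and 188 after irradiation, a rise of 1.97-fold in the mean (log2 fold change 0.97 ± 0.034 SE, adjusted p = 4.54e-08). Its partner CDK1 went from 85.97, 88.5 and 91.9 to 158, 156 and 163 FPKM (1.79-fold, adjusted p = 1.58e-07). The irradiated values of both genes lay far above the controls. CCNA2 (cyclin A2), which acts from S phase to early mitosis, measured 62.03, 62.95 and 62.5 and then 107, 110 and 109.7 FPKM (adjusted p = 8.20e-08). PLK1, a kinase that activates cyclin B with CDK1, had 62.2, 62.4 and 62.2 FPKM in the controls against 115, 111 and 113 (1.81-fold, adjusted p = 7.35e-08). For AURKA, the centrosome kinase that switches PLK1 on, the values were 56.2, 56.6 and 61.2 and 107, 112 and 116 FPKM (1.92-fold, adjusted p = 2.53e-07). None of these genes overlapped between the groups. FOXM1, the transcription factor of the mitotic genes, rose from 52.1, 53.9 and 52.9 to 81.6, 76.3 and 86.1 FPKM (1.53-fold, adjusted p = 5.70e-06). In the whole list of mitotic entry genes, 15 of 19 were higher and 2 lower, with a median log2 fold change of 0.61. The 2 lower ones, named after their values were seen, were LIN52, a MuvB subunit (-0.23), and ARPP19, an inhibitor of the phosphatase PP2A (-0.15, and -0.22 after the GC correction).

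At the kinetochore, where chromosomes meet the spindle, NUF2 showed the largest rise among called genes of at least 10 FPKM. This subunit of the NDC80 complex stood at 29.6, 28.6 and 30.6 FPKM in the controls and at 65.3, 69.4 and 68.3 after irradiation (2.29-fold, log2 fold change 1.17 ± 0.04 SE, adjusted p = 4.54e-08). NEK2, a kinase that separates the centrosomes and is not in the mitotic lists, measured 41.4, 41.4 and 40.3 against 88.7, 92 and 94.9 FPKM (2.24-fold, adjusted p = 4.54e-08). BUB1, a kinase of the spindle checkpoint, went from 35.3, 35.96 and 37.4 to 66.2, 68.9 and 69.2 FPKM (adjusted p = 1.16e-07). All 3 genes were higher in every irradiated library. TTK, which starts the checkpoint signal, had 23.1, 25.3 and 25.1 FPKM and then 42.1, 43.7 and 47.6 (adjusted p = 2.10e-06), and CENPA, the histone H3 variant of centromeres, 16.1, 15.7 and 16.7 and then 31.1, 27.2 and 27.9 (adjusted p = 3.04e-06). BIRC5 (survivin) and AURKB belong to the chromosomal passenger complex, which corrects faulty attachments. Their means rose 1.58-fold and 1.34-fold (adjusted p = 5.84e-07 and 3.79e-05). Of the 35 genes of this list, 25 were higher and 2 lower, with a median of 0.35. DSN1 (-0.54) and CENPM (-0.38, and -0.20 after the GC correction), named after their values were seen, were the 2 that fell.

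Spindle and cytokinesis genes all went the same way, with 28 of 28 called higher, on the deposited values and after the GC correction, and medians of 0.69 and 0.66. HMMR, which helps to assemble the spindle, stood at 17.3, 18.5 and 17.4 FPKM in the controls and at 36.1, 37.6 and 40.8 after irradiation (2.15-fold, adjusted p = 2.66e-07). CEP55, needed for the final cut between daughter cells, had 48.8, 43.1 and 46.6 against 88.5, 97.4 and 97.7 FPKM (2.05-fold, adjusted p = 4.62e-07). KIF20A, a kinesin of the midzone, measured 46.2, 47.3 and 47.4 and then 92.6, 96.9 and 97.4 FPKM (2.04-fold, adjusted p = 4.54e-08). These irradiated values were close to each other. ASPM, a spindle pole protein, was less even, with 34.9, 34.5 and 35.9 FPKM in the controls and 58.8, 77.5 and 78.2 after irradiation, where the first library lay below the others (adjusted p = 2.35e-05). KIF2C, a kinesin that takes microtubules apart, went from 41.4, 39.3 and 42.2 to 77.9, 76.5 and 82.2 FPKM (adjusted p = 1.84e-07), and TPX2, the activator of AURKA, from 118, 114 and 120.2 to 188, 182 and 196 (adjusted p = 8.67e-07).

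Of 21 genes of anaphase and chromosome structure, 16 were higher and 2 lower, with a median of 0.44. UBE2C, the ubiquitin-conjugating enzyme of the anaphase-promoting complex, had 73.8, 72.2 and 72.3 FPKM in the controls and 150.1, 142 and 140.3 after irradiation (1.98-fold, adjusted p = 6.37e-08). PTTG1 (securin) stood at 207, 198 and 212 and then at 378, 407 and 355 FPKM (1.85-fold, adjusted p = 8.85e-07). CDC20, which activates the complex, was measured at 96.1, 91.5 and 91.8 and then at 152, 150.4 and 149 FPKM (adjusted p = 3.59e-07). TOP2A, the topoisomerase that untangles sister chromatids, rose 1.65-fold, and MKI67, the Ki-67 proliferation marker, 1.32-fold (adjusted p = 5.84e-07 and 5.07e-04). The other 3 of the 12 largest rises are, like NEK2, not in these lists. CCN1, a secreted matrix protein and YAP target, went from 118, 114 and 121 to 237, 237 and 247 FPKM, PRR11, a cell cycle gene, from 23.3, 23.1 and 23.2 to 43.97, 44.7 and 48.3, and ARL6IP1, a protein of the endoplasmic reticulum membrane, from 136, 137 and 138 to 263, 263 and 264.

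**Figure D2:**
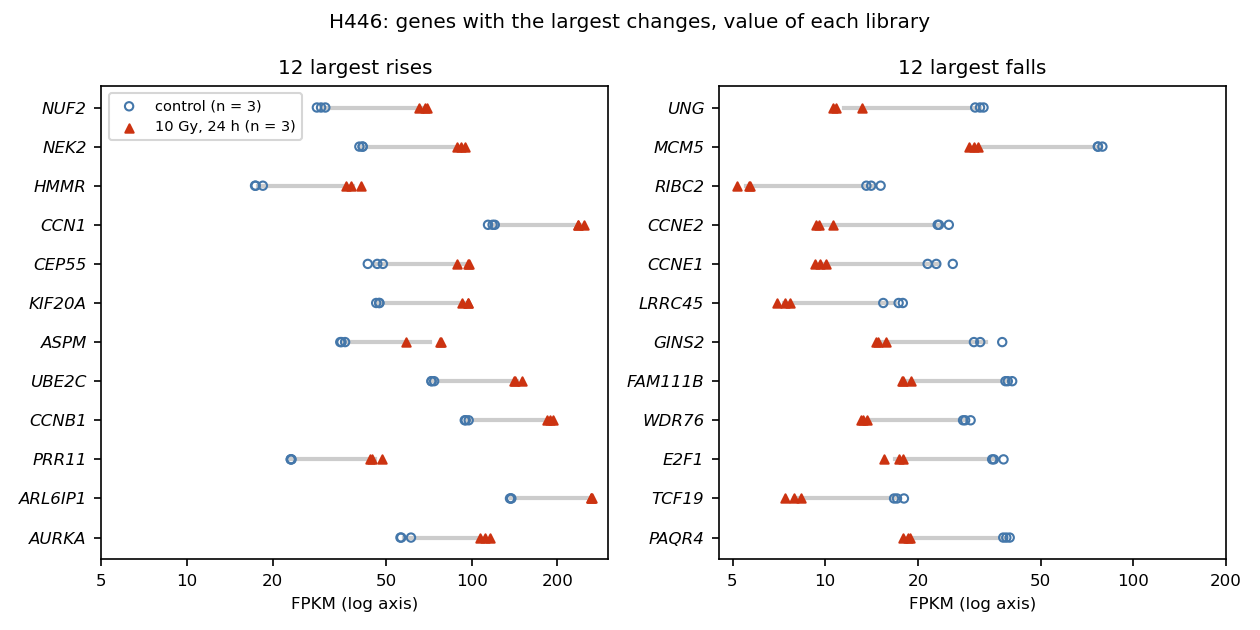
Value of every H446 library for the 12 largest rises (left) and the 12 largest falls (right) among called genes with a mean of at least 10 FPKM in 1 group, on a log axis. Open circles are the 3 controls, triangles the 3 irradiated libraries, and grey bars join the group means; in all 24 genes the groups are apart, by 1.92-fold to 2.29-fold on the left and by 2.10-fold to 2.76-fold on the right.

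Mitotic genes share short sequences near their start, and 4 promoters are shown because their genes rose most among those with such a sequence. The cell cycle genes homology region (CHR, searched as TTTGAA and as TTCGAA on both strands) is bound by the MuvB complex, and the CCAAT box (CCAAT, both strands) by NF-Y. Promoter windows of 300 bases from RefSeq (GRCh38.p14, 250 bases before to 50 after the start) were found for 90 of the 103 mitotic genes. A CHR of either form was in 54 of the 74 windows of mitotic genes called higher (73%), in 0 of the 4 windows of those called lower, in 5 of the 12 windows of those not called, in 11.1% of the windows of all tested genes and in 16.6% of all 27305 windows. Over all 90 windows of the mitotic lists it was in 65.6%. A CCAAT box was in 68.9%, in 1 of 4, in 6 of 12, in 37.1% and in 35.7%, and in 64.4% of the 90. A match is only a match of letters and no measured binding. The windows printed here run from 170 bases before to 30 after the start, 5′ to 3′ on the strand of the gene, with CHR and CCAAT matches in capitals, read on the other strand as TTCAAA and ATTGG. AURKA and UBE2C have no entry in the table used. The windows lie at chr1:163321784-163321983 on the plus strand (NUF2), chr5:163460462-163460661 on the plus strand (HMMR), chr10:93496442-93496641 on the plus strand (CEP55) and chr1:197146640-197146839 on the minus strand (ASPM).
NUF2: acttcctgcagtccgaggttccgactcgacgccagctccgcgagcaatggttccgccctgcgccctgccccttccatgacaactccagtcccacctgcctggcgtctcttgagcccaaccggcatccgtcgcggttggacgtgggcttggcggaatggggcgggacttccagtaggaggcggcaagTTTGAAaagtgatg
HMMR: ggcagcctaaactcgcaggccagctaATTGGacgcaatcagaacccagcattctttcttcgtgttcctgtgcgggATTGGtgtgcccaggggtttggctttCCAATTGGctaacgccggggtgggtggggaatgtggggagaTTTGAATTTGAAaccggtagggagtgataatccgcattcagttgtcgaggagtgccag
CEP55: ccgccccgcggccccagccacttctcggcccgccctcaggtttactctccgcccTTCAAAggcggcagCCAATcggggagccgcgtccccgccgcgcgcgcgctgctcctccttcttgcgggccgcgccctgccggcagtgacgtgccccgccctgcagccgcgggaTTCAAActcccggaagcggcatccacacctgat
ASPM: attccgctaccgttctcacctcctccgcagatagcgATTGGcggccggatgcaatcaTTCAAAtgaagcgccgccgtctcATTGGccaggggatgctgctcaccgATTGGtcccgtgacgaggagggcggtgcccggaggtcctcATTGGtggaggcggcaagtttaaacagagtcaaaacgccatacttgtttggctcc

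Replication genes went the other way. Of 60 genes in 2 lists of origin licensing and fork genes, all tested, 41 were called lower and 6 higher, with a median log2 fold change of -0.28. In 44 of them the irradiated libraries lay below all controls, beside 29.9% of all tested genes. The GC correction left 43 lower and 3 higher, with a median of -0.29. These counts stand against 23.6% of all genes called lower on the deposited values and 15% after the correction. The 6 higher ones, named after their values were seen, were the origin recognition subunits ORC3, ORC4 and ORC5, the clamp loader subunit RFC3, TICRR and DBF4, of which TICRR and DBF4 (log2 fold changes 0.26 and 0.39) were also higher after the correction. The other gene higher after it was CHTF18, a subunit of another clamp loader (-0.050 on the deposited values and 0.17 after the correction).

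Subunits of the MCM helicase, loaded on DNA in G1 phase to mark the origins, fell in every case named here. MCM5 stood at 79.4, 76.8 and 76.8 FPKM in the controls and at 31.4, 30.3 and 29.2 after irradiation, 2.56-fold lower in the mean (log2 fold change -1.33 ± 0.039 SE, adjusted p = 3.80e-08). MCM2 had 84.4, 85.4 and 84.5 and then 52.5, 48.6 and 49.4 FPKM (adjusted p = 4.19e-07), MCM3 99.7, 105 and 103 and then 56.6, 56.1 and 54.7 (adjusted p = 8.20e-08), and MCM4 67.7, 70.2 and 69.8 and then 37.3, 36.4 and 36.04 (adjusted p = 7.35e-08). In MCM6 the values went from 66.6, 68.95 and 68.01 to 37.9, 38.6 and 38.9 FPKM (adjusted p = 1.24e-07). The groups were apart in every one of these subunits. GINS2, part of the active helicase, went from 30.4, 31.9 and 37.6 to 14.8, 15.8 and 14.7 FPKM (2.204-fold lower, adjusted p = 2.13e-06), and CDC45, another component of it, fell 1.43-fold (adjusted p = 3.77e-05). CDC6, a loader of the MCM ring, fell less, from 42.6, 41.3 and 42.7 to 32.1, 32.96 and 32.7 FPKM (adjusted p = 5.00e-05).

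At the fork, PCNA, the sliding clamp of the polymerases, stood at 150.2, 152 and 159.8 FPKM in the controls and at 85.8, 87.7 and 80.3 after irradiation (1.82-fold lower, adjusted p = 3.54e-07). FEN1, which trims Okazaki fragments, had 79.02, 77.8 and 80.6 against 52.3, 52.3 and 51.3 FPKM (adjusted p = 7.66e-07). RFC2, a subunit of the clamp loader, fell 1.63-fold, POLD3, a subunit of polymerase delta, 1.502-fold, and POLA1, the polymerase that starts each fragment, 1.37-fold (adjusted p = 2.90e-06, 6.98e-06 and 2.04e-05). Of the 31 fork genes, 23 were lower and 1 higher.

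Of 21 genes of nucleotide supply, 0 were higher and 14 lower (median -0.20), and 2 and 13 after the GC correction, beside 14.8% and 23.6% of all genes (15.9% and 15% after it). UNG, the glycosylase that removes uracil from DNA, showed the largest fall among called genes of at least 10 FPKM, from 30.7, 31.8 and 32.7 FPKM in the controls to 13.1, 10.9 and 10.6 after irradiation (2.76-fold lower, log2 fold change -1.39 ± 0.07 SE, adjusted p = 3.59e-07). TYMS, which makes thymidylate, measured 82.2, 79.3 and 80.7 and then 55.3, 50.1 and 51.6 FPKM (adjusted p = 3.01e-06), and DUT, which breaks down dUTP, 90.6, 89.1 and 92.6 and then 64.1, 58.3 and 60.2 (adjusted p = 4.85e-06). RRM2, the regulated subunit of ribonucleotide reductase, fell 1.24-fold (adjusted p = 1.78e-04). TK1 (thymidine kinase) did not follow, with 30.8, 29.99 and 29.3 FPKM in the controls and 31.9, 30.7 and 30.2 after irradiation (adjusted p = 0.422), and was called higher after the GC correction (log2 fold change 0.23, adjusted p = 5.64e-04).

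Genes for proteins that package new DNA fell as well, as 13 of 18 genes of histone supply and chromatin maintenance were lower and 0 higher (median -0.38), and 14 lower and 0 higher after the GC correction, beside 23.6% and 14.8% of all genes (15% and 15.9% after it). SLBP, which binds the stem loop of histone mRNAs, went from 73.96, 69.7 and 73.3 FPKM to 40.4, 43.6 and 41.1 (1.73-fold lower, adjusted p = 5.17e-07). CHAF1B, a subunit of the histone chaperone CAF-1, had 22.9, 23.3 and 22.9 and then 13.4, 12.7 and 14.3 FPKM (adjusted p = 2.66e-06). ASF1B, another chaperone, fell 1.63-fold, HELLS, a chromatin remodeller, 1.604-fold and UHRF1, which recruits DNMT1 to new DNA, 1.61-fold (adjusted p = 5.70e-06, 4.98e-06 and 8.55e-06).

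The replication-dependent histone genes did not fall as a group. Of 62 on the list, 57 had a row and 26 passed the filter, of which 13 were higher and 1 lower, with the same counts after the GC correction, beside 14.8% and 23.6% of all genes (15.9% and 15% after it). The other 31 stayed under the filter, so the count covers the more abundant ones only. Most histone mRNAs of this kind carry no poly(A) tail, and the libraries were made from poly(A) RNA. H2BC5 stood at 11.9, 9.93 and 10.97 FPKM in the controls and at 18.4, 20.1 and 18.6 after irradiation (1.74-fold, adjusted p = 1.68e-05). H1-2, the most abundant of the named ones, had 88.9, 80.2 and 87.7 against 102, 119 and 102 FPKM (adjusted p = 0.00295). H4C14 was the 1 that fell, from 8.28, 8.01 and 8.4 to 4.73, 4.6 and 3.4 FPKM (adjusted p = 1.18e-04). Histone genes are near-identical copies, so how reads were split among them is uncertain.

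E2F sites (searched as TTTNNCGC on both strands, where N is any base) were in 19 of the 35 promoter windows of replication genes called lower (54.3%), in 2 of 6 of those called higher, in 3 of 8 of those not called, in 49.0% of the windows of all members, in 11.1% of the windows of all tested genes and in 6.9% of all windows. A CHR of either form was in 1 of these 35 windows, and MCM5 has no entry. The promoters shown are those of the 4 genes of replication, nucleotide supply and G1 regulation that fell most among those with an E2F match in the window shown, in the same form as above, with E2F matches in capitals. They lie at chr16:85688925-85689124 (GINS2), chr20:33686356-33686555 (E2F1), chr6:52284713-52284912 (MCM3) and chr20:5126593-5126792 (PCNA), all on the minus strand.
GINS2: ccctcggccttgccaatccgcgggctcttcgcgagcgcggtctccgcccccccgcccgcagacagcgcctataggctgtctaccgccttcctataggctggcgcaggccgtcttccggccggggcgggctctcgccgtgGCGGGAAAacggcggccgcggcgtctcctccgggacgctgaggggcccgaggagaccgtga
E2F1: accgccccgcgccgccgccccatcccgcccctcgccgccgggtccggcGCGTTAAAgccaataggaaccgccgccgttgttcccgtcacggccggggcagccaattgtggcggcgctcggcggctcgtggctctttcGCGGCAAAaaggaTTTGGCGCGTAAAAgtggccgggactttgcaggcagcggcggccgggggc
MCM3: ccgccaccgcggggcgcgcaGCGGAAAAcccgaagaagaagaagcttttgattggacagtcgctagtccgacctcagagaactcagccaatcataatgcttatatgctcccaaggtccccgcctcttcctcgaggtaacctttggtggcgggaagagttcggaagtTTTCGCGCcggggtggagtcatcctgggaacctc
PCNA: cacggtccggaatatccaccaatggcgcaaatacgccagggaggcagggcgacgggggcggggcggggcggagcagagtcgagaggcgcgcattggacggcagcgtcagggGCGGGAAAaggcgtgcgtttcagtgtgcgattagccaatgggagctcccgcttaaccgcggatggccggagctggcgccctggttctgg

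Regulators of the step from G1 to S phase were among the largest falls. CCNE1 and CCNE2 (cyclins E1 and E2), which drive CDK2 into S phase, stood at 25.95, 21.5 and 22.9 and at 25.2, 23.2 and 23.4 FPKM in the controls. After irradiation they were at 10.1, 9.24 and 9.62 and at 10.6, 9.32 and 9.57 FPKM, 2.43-fold lower in both (adjusted p = 6.60e-07 and 2.54e-07). E2F1 itself went from 37.9, 34.8 and 35.3 to 17.9, 17.3 and 15.5 FPKM (2.13-fold lower, adjusted p = 5.84e-07). The groups were apart in all 3 genes. CDK4, the kinase of cyclin D, had 63.7, 65.7 and 66.7 and then 43.4, 42.2 and 41.8 FPKM (adjusted p = 1.04e-06), and CDC25A, a phosphatase that activates CDK2, fell 1.43-fold (adjusted p = 6.03e-05). Of 29 tested genes of this list, 13 were lower and 6 higher, and 13 were lower and 5 higher after the GC correction, beside 23.6% and 14.8% of all genes (15% and 15.9% after it). CDKN2A, the p16 inhibitor of CDK4, was high at 216, 212 and 213 FPKM in the controls and 188, 203 and 175 after irradiation, a fall (adjusted p = 0.0148) that was lost after the GC correction (adjusted p = 0.926) and without control replicate 1 (adjusted p = 0.0519), as well as with the spread of all 18 libraries (adjusted p = 0.0934). The other large falls were in genes outside these lists. RIBC2, LRRC45, FAM111B, WDR76, TCF19 and PAQR4 had control means 2.59, 2.29, 2.16, 2.15, 2.19 and 2.101 times the irradiated ones.

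**Figure D3:**
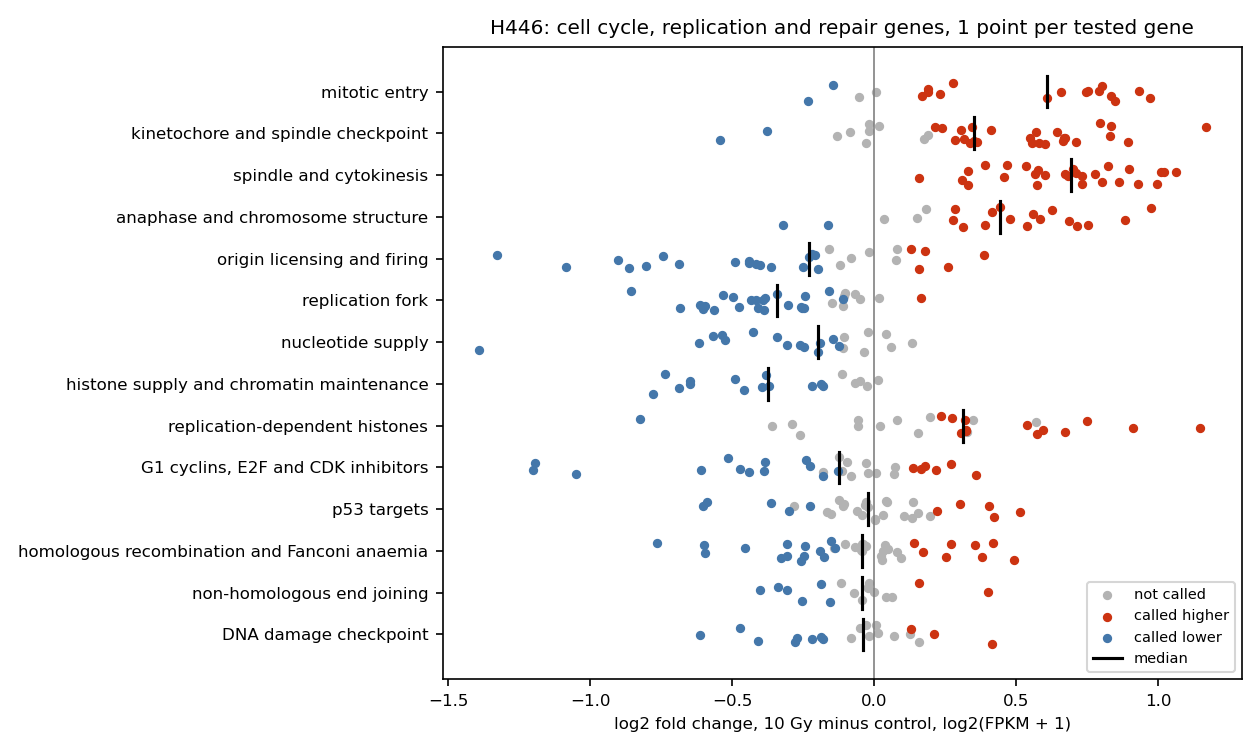
Log2 fold change (10 Gy minus control) of every tested H446 gene in 14 lists of cell cycle, replication and repair genes, with a black line at the median of each list. Mitotic lists lie to the right of 0 (medians 0.35 to 0.69) and the lists of replication, nucleotide and histone supply to the left (-0.20 to -0.38), while p53 targets and repair genes lie around 0.

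Of 31 tested p53 targets, 5 were higher and 5 lower, with a median of -0.02, and after the GC correction 8 were higher and 5 lower, beside 14.8% and 23.6% of all genes (15.9% and 15% after it). CDKN1A stood at 75.7, 72.8 and 71.7 FPKM in the controls and at 72.4, 63.6 and 65.9 after irradiation, and the groups overlapped (log2 fold change -0.13 ± 0.049 SE, adjusted p = 0.0642). After the GC correction its log2 fold change was 0.0061 (adjusted p = 0.918). Without the first irradiated library, the one with the GC trend of -0.106, it was called lower on the deposited values (-0.18, adjusted p = 0.0064). MDM2, a ubiquitin ligase of the same response, had 11.6, 12.1 and 11.2 and then 11.8, 10.4 and 9.94 FPKM (adjusted p = 0.2), and without the same library it was also called lower (-0.17, adjusted p = 0.0292). GDF15, a secreted stress factor, fell from 53.7, 50.04 and 55.5 to 35.5, 35.3 and 33.9 FPKM (adjusted p = 6.13e-06). This call was lost when the spread was estimated over all 18 libraries of the series in 1 fit (adjusted p = 0.374). PLK2, CCNG1 and GADD45A rose 1.44-fold, 1.35-fold and 1.34-fold (adjusted p = 3.23e-05, 5.27e-05 and 1.34e-04), of which GADD45A was lost in that fit (adjusted p = 0.157). These 3 are known as p53 targets that other stress factors induce as well, and which factor raised them here was not tested.

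Among checkpoint genes, CHEK2, the kinase downstream of ATM, rose from 35.2, 34.6 and 34.2 to 46.7, 45.6 and 47.4 FPKM (adjusted p = 1.78e-05). CHEK1, downstream of ATR, fell from 15.3, 15.5 and 15.9 to 13.5, 13.5 and 13.8 FPKM (adjusted p = 0.0085), and CLSPN (claspin), its mediator at the fork, fell 1.59-fold (adjusted p = 8.89e-06). ATM measured 6.28, 6.39 and 6.15 FPKM and then 6.15, 7.21 and 7.5 (adjusted p = 0.185), and was called higher without the first irradiated library (0.20, adjusted p = 0.0213), while the GC correction took its log2 fold change from 0.13 to 0.06 (adjusted p = 0.496). WEE1, which holds back CDK1, was higher on the deposited values (1.16-fold, adjusted p = 0.0139), a call lost after the GC correction (adjusted p = 0.0819) and without control replicate 2 (adjusted p = 0.0603) or irradiated replicate 3 (adjusted p = 0.0532). In this list, 3 of 20 genes were higher and 8 lower, and 2 and 6 after the GC correction, beside 14.8% and 23.6% of all genes (15.9% and 15% after it).

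Of 37 genes of homologous recombination and the Fanconi anaemia pathway, 8 were higher and 14 lower (7 and 11 after the GC correction), beside 14.8% and 23.6% of all genes (15.9% and 15% after it). BRCA1 stood at 11.9, 12.3 and 12.9 FPKM and then at 10.9, 12.7 and 12.3 (adjusted p = 0.585), and the groups overlapped. FANCD2, which acts at crosslinked DNA, rose from 15.97, 15.3 and 14.6 to 23.4, 20.8 and 21.6 FPKM (adjusted p = 9.94e-05). RMI2, a partner of the BLM helicase, fell from 19.98, 20.8 and 18.6 to 11.3, 10.97 and 11.4 FPKM (adjusted p = 2.58e-06), FANCA fell 1.397-fold and XRCC3, a factor of strand exchange, 1.63-fold (adjusted p = 5.86e-05 and 1.58e-04). The log2 fold change of XRCC3 was -0.60, and -0.39 after the GC correction. In non-homologous end joining, 2 of 17 tested genes were higher and 6 lower, and after the correction 1 and 3. XRCC4, which holds the ligase at the break, rose 1.35-fold and XRCC5 (Ku80) fell 1.12-fold (adjusted p = 0.00206 and 0.00879).

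Of 29 tested genes of the BCL2 family and the death receptors, 6 were higher and 6 lower, and 6 and 1 after the GC correction, beside 14.8% and 23.6% of all genes (15.9% and 15% after it). MCL1, which keeps cells alive, rose from 134, 135 and 134 to 165, 159 and 167 FPKM (adjusted p = 1.57e-04), and so did its antagonist PMAIP1 (NOXA), from 81.8, 79.5 and 78.6 to 109, 102 and 116 (adjusted p = 7.41e-05). BIRC2 and BIRC3, inhibitors of apoptosis, rose 1.24-fold and 1.29-fold (adjusted p = 6.55e-04 and 0.00152). BCL2 had 3.81, 3.43 and 3.69 FPKM and then 2.77, 3.01 and 3.47 (adjusted p = 0.0832), and was called lower without irradiated replicate 3 (-0.26, adjusted p = 0.0363).

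Whether H446 responded differently from the other lines was tested in 1 fit of all 18 libraries over 13071 genes. The response of H446 differed from that of A549 in 4526 genes (34.6%), higher in 2002 (15.3%) and lower in 2524 (19.3%), and from that of BEAS-2B in 2971 genes (22.7%), higher in 1175 (8.99%) and lower in 1796 (13.7%). With the GC correction these counts were 4714 and 1367. The count against BEAS-2B depended on single libraries, falling to 1814 without BEAS-2B control replicate 1 and rising to 4534 without BEAS-2B 10 Gy replicate 3. Another BEAS-2B library, labelled 10 Gy replicate 2, stood apart from the other irradiated ones: its CDKN1A was 102 FPKM against 310 and 488 FPKM, and 79.9 to 86.4 FPKM in the controls. Values against BEAS-2B are therefore given with and without it. The library also lay outside the other 2 irradiated ones in CCNB1, AURKA and MCM2, so all values without it are a description, with no test.

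CDKN1A rose in A549 from 101, 106 and 103 FPKM to 318, 294 and 297, and was not called in H446, a difference in log2 response of -1.67 (SE 0.45, adjusted p = 0.00803). Against BEAS-2B the difference was -1.68 (adjusted p = 0.0142), or -2.32 without its 10 Gy replicate 2, and with the GC correction and all libraries -1.47 (adjusted p = 0.0537). MDM2 differed by -1.87 from A549 (adjusted p = 0.00508) and by -1.24 from BEAS-2B (adjusted p = 0.0659), or -1.88 without that library, where MDM2 was 16.2 FPKM against 47.5 and 87.8 FPKM. For both genes the H446 libraries stayed near their controls while those of A549 lay well above. PLK1 and AURKA rose more in H446 than in A549, by 0.80 and 0.81 on the log2 scale (adjusted p = 4.67e-06 and 3.33e-05), and more than in BEAS-2B, by 0.43 and 0.69 (adjusted p = 0.00351 and 7.18e-04), or 0.38 and 0.55 without that library. CCNB1 rose in A549 as well, from 42.8, 46.0 and 42.2 FPKM to 62.5, 71.6 and 60.1, and the difference of 0.42 (adjusted p = 0.0253) was lost without A549 10 Gy replicate 1 (adjusted p = 0.0564), A549 10 Gy replicate 3 (0.0663), A549 control replicate 2 (0.0605) or H446 10 Gy replicate 2 (0.0535). Against BEAS-2B the difference for CCNB1 was 0.70 (adjusted p = 0.00235), or 0.54 without its 10 Gy replicate 2. CCNE2 fell more in H446 than in A549, where it was at 1.36 to 1.55 FPKM in the controls, and than in BEAS-2B (-1.03 and -0.83, adjusted p = 3.77e-06 and 2.54e-04), and by -0.79 against BEAS-2B without that library. For MCM2 the difference from A549 was -0.18 with a standard error of 0.14 (adjusted p = 0.338), and from BEAS-2B -0.65 (adjusted p = 0.00411), or -0.48 without the same library. CDC6 differed by -0.30 from A549 (adjusted p = 0.00581) and by -0.21 from BEAS-2B (adjusted p = 0.0588), or -0.17 without 10 Gy replicate 2, a difference that passed the threshold without BEAS-2B control replicate 1 (-0.25, adjusted p = 0.0482) or BEAS-2B 10 Gy replicate 3 (-0.22, adjusted p = 0.0419).

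**Figure D4:**
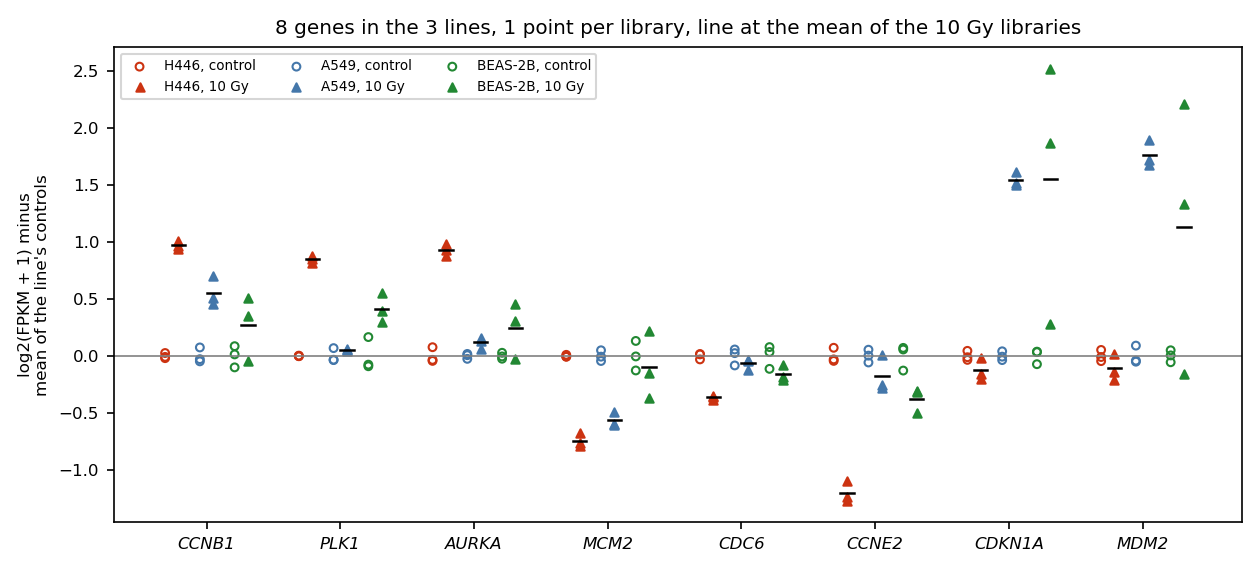
Values of 8 genes in all 18 libraries as log2(FPKM + 1) minus the mean of the controls of the same line, with open circles for controls, triangles for 10 Gy libraries and a short line at the mean of the 3 triangles. The H446 triangles for CDKN1A and MDM2 lie between -0.21 and 0.02, below every A549 triangle, and the H446 triangles for CCNB1, PLK1 and AURKA lie highest.

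Of 20 tested NF-kB, cytokine and chemokine genes, 5 were higher and 4 lower (6 and 4 after the GC correction), beside 14.8% and 23.6% of all genes (15.9% and 15% after it). CXCL8, a chemokine for neutrophils, rose from 11.9, 11.4 and 12.8 to 16.7, 18.7 and 15.1 FPKM (adjusted p = 9.54e-04), and the related CXCL1 rose 1.38-fold (adjusted p = 0.00179). CCL5, which attracts T cells, fell from 74.8, 72.1 and 69.1 to 61.4, 57.02 and 62.5 FPKM (adjusted p = 0.00182), a call lost in the fit of 18 libraries (adjusted p = 0.0882). NFKBIA, the inhibitor and target of NF-kB, had 54.7, 52.2 and 49.5 and then 48.7, 49.99 and 47.7 FPKM (adjusted p = 0.11). Among inflammasome genes, 2 of 12 tested were higher and 2 lower (2 and 1 after the correction). The sensor NLRP3 was listed at 0 in 5 of the 6 libraries, and CASP1 (caspase-1) stood at 19.8, 21.4 and 22.9 FPKM and then at 21.3, 22.5 and 19.3 (adjusted p = 0.797). IL1B was lower after irradiation (14.8, 14.2 and 14.4 and then 12.4, 11.2 and 12.1 FPKM, adjusted p = 0.00251), a call also lost in that fit (adjusted p = 0.301), and IL18, the other cytokine that caspase-1 cuts, was higher (105, 107 and 107 and then 128, 136 and 126 FPKM, adjusted p = 2.84e-04).

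Of 33 interferon-stimulated genes, all tested, 11 were higher and 3 lower (14 and 3 after the GC correction), with a median of 0.10, beside 14.8% and 23.6% of all genes (15.9% and 15% after it). RIGI, a sensor of viral RNA, went from 45.04, 46.5 and 45.5 to 72.1, 67.5 and 77.5 FPKM (1.59-fold, adjusted p = 5.74e-06), IFIT1, which binds foreign RNA, from 31, 30.9 and 31.6 to 43.2, 39.7 and 48.2 (adjusted p = 2.51e-04), and IFI44 from 117, 109.7 and 116 to 155, 156 and 167 (adjusted p = 1.72e-05). IFITM3, which blocks virus entry, fell from 525, 504 and 509.8 to 422, 401 and 377 FPKM (adjusted p = 2.41e-04), and ISG15 was high and overlapped, at 1157, 1019.9 and 1120.2 FPKM and then 1154, 972 and 1074 (adjusted p = 0.625). The log2 fold change of ISG15 was -0.045, and 0.15 after the correction (adjusted p = 0.0742). Of 17 MHC class I genes, which present peptides to T cells, 5 were higher and 0 lower, and 8 and 0 after the correction. HLA-B rose from 249, 253 and 257 to 305, 298 and 296 FPKM, HLA-E 1.11-fold and HLA-F 1.302-fold (adjusted p = 4.25e-04, 0.00914 and 0.00195), with HLA-E lost in the fit of 18 libraries (adjusted p = 0.0515). The GC correction took the log2 fold changes of HLA-B and HLA-E from 0.24 to 0.39 and from 0.14 to 0.24. HLA and IFITM genes are close copies of each other, and reads may be split among them.

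Of 21 tested AP-1 and immediate early genes, 9 were higher and 2 lower, and 9 and 1 after the GC correction, beside 14.8% and 23.6% of all genes (15.9% and 15% after it). FOS rose 1.203-fold (adjusted p = 0.0096), KLF6 1.3-fold (adjusted p = 9.43e-04) and DUSP5, a phosphatase that dampens ERK, 1.304-fold (adjusted p = 1.31e-04), of which FOS and DUSP5 were lost in the fit of 18 libraries (adjusted p = 0.226 and 0.0793), whereas JUN stood at 10.7, 10.2 and 10.7 FPKM and then at 10.9, 10.9 and 10.2 (adjusted p = 0.832). JUND, the AP-1 member with the highest GC content of those named, fell from 21.9, 21.1 and 19.8 to 15.5, 13.4 and 14.3 FPKM (log2 fold change -0.51 ± 0.059 SE, and -0.23 after the correction). Of 25 tested YAP and TGF-beta targets, 10 were higher and 4 lower (9 and 2 after the correction). Beside CCN1, CCN2 (CTGF), another secreted YAP target, rose from 11.01, 11.1 and 11.4 to 15.4, 17.2 and 16.2 FPKM (adjusted p = 6.03e-05) and SMAD3, a TGF-beta signal carrier, 1.29-fold (adjusted p = 4.55e-04). ID3, an inhibitor of helix-loop-helix factors, fell 1.24-fold (adjusted p = 2.98e-04), with a log2 fold change of -0.30, and -0.18 after the correction.

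Of 15 chaperone genes of the cytosol, 6 were higher and 1 lower, and 10 and 0 after the GC correction, beside 14.8% and 23.6% of all genes (15.9% and 15% after it). HSP90AA1, the inducible HSP90, rose from 403, 429 and 427 to 518, 554 and 552 FPKM (adjusted p = 1.50e-04), HSPH1 from 40.9, 41.1 and 41.2 to 54.4, 62.2 and 60.6 (adjusted p = 3.64e-05), and DNAJA1 1.17-fold (adjusted p = 0.00188). In the endoplasmic reticulum, 7 of 21 were higher and 2 lower (8 and 0 after the correction). HSPA5 (BiP), its main chaperone, went from 394, 379 and 397 to 449, 462 and 447 FPKM (adjusted p = 0.0014), and HERPUD1 rose 1.251-fold (adjusted p = 0.0012). Of 25 genes of the integrated stress response, 9 were lower and 3 higher, and 7 and 4 after the correction, where all genes were also lower more often than higher on the deposited values (23.6% and 14.8%). Its factor ATF4 stood at 263, 270.2 and 268 FPKM and then at 260, 262 and 251 (adjusted p = 0.283, and 0.0388 for a fall after quantile normalization). PHGDH and PSAT1, enzymes of serine synthesis, fell 1.204-fold and 1.18-fold, and DDIT4, an inhibitor of mTORC1, 1.32-fold (adjusted p = 3.27e-04, 0.0024 and 1.69e-04). The log2 fold change of DDIT4 was -0.39, and -0.26 after the correction. DDIT3 (CHOP) had the largest rise of the list, from 7.68, 5.74 and 7.37 to 10.36, 12.55 and 8.03 FPKM (adjusted p = 0.0143, and 0.0131 after the correction). This call was lost in the fit of 18 libraries (adjusted p = 0.159), without the filter on low values (0.0665) and without control replicate 2 (0.0565).

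Of 33 genes of cholesterol and fatty acid synthesis, 12 were higher and 4 lower (14 and 3 after the GC correction), beside 14.8% and 23.6% of all genes (15.9% and 15% after it). FDFT1 and SQLE, enzymes that make and oxidize squalene, rose from 95.2, 94.1 and 96.8 to 119.6, 119 and 119 FPKM and from 34.9, 33.5 and 33.2 to 40.2, 41.9 and 40.9 FPKM, 1.247-fold and 1.21-fold (adjusted p = 5.85e-05 and 5.10e-04). SREBF1, the factor of fatty acid genes, fell from 33.95, 34.9 and 33.2 to 27.5, 24.5 and 24.4 FPKM (adjusted p = 2.06e-04), a log2 fold change of -0.41, and -0.21 after the correction. FASN, which makes fatty acids, fell 1.23-fold (adjusted p = 0.00176), a call lost after the correction (adjusted p = 0.167) and in the fit of 18 libraries (adjusted p = 0.0763). Of 22 glycolysis genes, 0 were higher and 10 lower, and 2 and 6 after the correction, set against the same shares of all genes. SLC16A3, the lactate exporter MCT4, went from 210.3, 199 and 204 to 171, 156 and 158 FPKM (adjusted p = 2.14e-04), a log2 fold change of -0.34, and -0.15 after the correction. PFKM, GPI and PGAM1 each fell 1.16-fold, with GPI lost in the same fit (adjusted p = 0.0785), and log2 fold changes of -0.22 for GPI and -0.21 for PGAM1 that were -0.14 for both after the correction, while LDHA and HK2 were not called (adjusted p = 0.447 and 0.816).

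NRF2 targets and the pentose phosphate pathway, which supply reducing power, fell in 13 of 23 tested genes with 0 higher, and in 10 with 0 higher after the GC correction, beside 23.6% and 14.8% of all genes (15% and 15.9% after it). FTL, the light chain of ferritin, stood at 2945, 2794 and 2965 FPKM and then at 2265, 2290.0 and 2142 (adjusted p = 3.69e-04), and NQO1 at 212, 206 and 219.5 and then at 187, 197 and 177 (adjusted p = 0.00862). SRXN1 and PGD fell 1.24-fold and 1.17-fold (adjusted p = 2.97e-04 and 4.28e-04). Of 76 nuclear genes of the respiratory chain, 3 were higher and 24 lower (4 and 14 after the correction), against 23.6% of all genes called lower (15% after it). Among them ATP5MC1, a subunit of the ATP synthase rotor, fell 1.36-fold (adjusted p = 5.11e-04). CYC1 was called lower on the deposited values only (-0.037 after the correction, adjusted p = 0.565), and NDUFS1 after the correction only (-0.10, adjusted p = 0.0276). The 13 transcripts of the mitochondrial genome were not analysed here.

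Of 79 ribosomal protein genes, all tested, 0 were higher and 14 lower, with a median of -0.08, beside 14.8% and 23.6% of all genes. After the GC correction 0 were higher and 9 lower, beside 15.9% and 15% of all genes. These shares also apply to the other lists of this paragraph. RPS6 stood at 1839, 1889.5 and 1972 FPKM and then at 1790.4, 1864 and 1791 (adjusted p = 0.292), and RPL27 fell 1.15-fold (adjusted p = 0.00401, and 0.11 in the fit of 18 libraries). Many ribosomal proteins have processed pseudogenes that may share reads with them. Of 24 ribosome biogenesis genes, 3 were higher and 8 lower (2 and 4 after the correction). FBL, which methylates ribosomal RNA, went from 162, 159 and 166 to 133, 135 and 127 FPKM (adjusted p = 1.83e-04), and NCL (nucleolin) fell 1.12-fold (adjusted p = 0.00896). Of 31 proteasome genes, 4 were higher and 3 lower (3 and 3 after the GC correction), and of 29 lysosome and autophagy genes 5 were higher and 4 lower (8 and 2 after it). Of these, SQSTM1 (p62), a cargo receptor of autophagy and an NRF2 target, fell from 259, 255 and 264 to 199, 187 and 189.6 FPKM (adjusted p = 1.47e-05), and MAP1LC3B and GABARAPL1, which coat the autophagosome, rose 1.17-fold and 1.16-fold (adjusted p = 0.00218 and 0.00175).

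**Figure D5:**
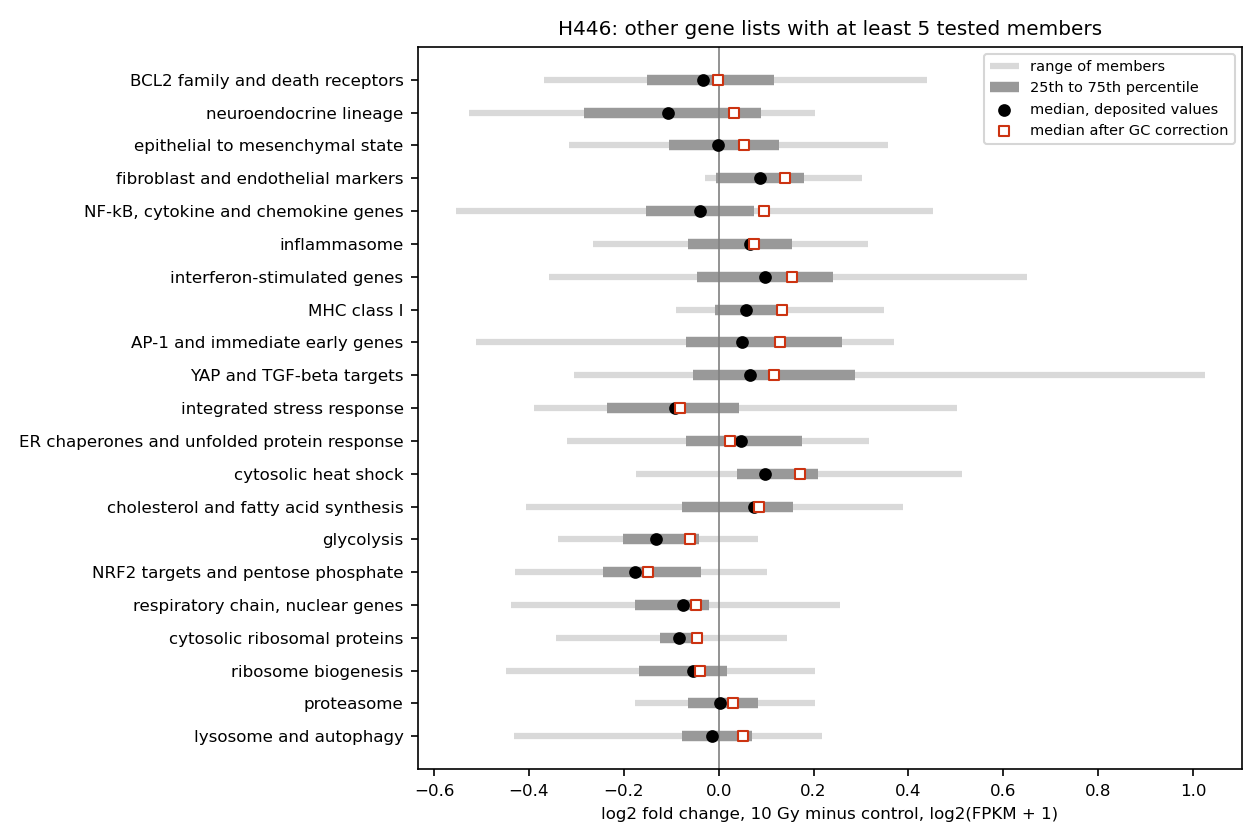
Median log2 fold change (10 Gy minus control) of H446 gene lists outside the cell cycle with at least 5 tested members, on the deposited values (black points) and after the GC correction (red squares), over the range (light bars) and the 25th to 75th percentile (dark bars) of the members. No list median exceeds 0.18 in size, against 0.55 for the mitotic genes.

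Of 8 neuroendocrine genes that passed the filter, 2 were higher and 3 lower, and 1 and 2 after the GC correction, beside 14.8% and 23.6% of all genes (15.9% and 15% after it). UCHL1, an abundant neuronal hydrolase, fell from 23.5, 22.5 and 22.6 to 15.5, 15.3 and 16.01 FPKM (adjusted p = 9.95e-06), ENO2, the neuronal enolase, fell 1.36-fold (adjusted p = 9.22e-05), and TUBB3, the neuronal tubulin, rose 1.16-fold (adjusted p = 0.00701), a call lost in the fit of 18 libraries (adjusted p = 0.0513). The GC correction took its log2 fold change from 0.20 to 0.37 (adjusted p = 2.15e-04). In the list of the epithelial to mesenchymal state, 4 of 17 tested genes were higher and 3 lower, and 4 and 0 after the GC correction, set against the same shares of all genes. KRT7 fell from 1332, 1309 and 1371 to 1182, 1075 and 1125 FPKM (adjusted p = 0.00265), a call lost after the correction (adjusted p = 0.39), while SNAI2, a repressor of epithelial genes, rose 1.32-fold (adjusted p = 0.0022, and 0.355 in the fit of 18 libraries). VIM had 1039, 1020.0 and 1029.8 FPKM after irradiation and was not called (adjusted p = 0.273). LUM, the highest of the fibroblast markers, rose from 15.9, 15.2 and 17.3 to 20.2, 19.8 and 20.4 FPKM (adjusted p = 0.00135).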

How the data were processed

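Poly(A) RNA was sequenced as single-end 50-base reads on a BGISEQ-500. The submitters' processing notes name HISAT2 2.0.4, Bowtie2 2.2.5, RSEM 1.2.12 and hg38. The deposited table of 18475 genes holds 1 value per gene and library, taken as FPKM made by the authors. The unit was inferred from the study's methods and the values, and read depth is unknown.

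Genes that reached 1 FPKM in 3 or more of the 6 H446 libraries were tested on log2(FPKM + 1) with limma 3.58.1 (R 4.3.3, empirical Bayes with trend, Benjamini-Hochberg adjusted p under 0.05). Fold changes on this scale understate those of low genes. Folds are otherwise ratios of mean FPKM. For the GC correction, a loess curve (span 0.5) of each library's deviation on transcript GC content (GENCODE 29) was subtracted. Responses of the lines were compared as contrasts in 1 fit of 18 libraries. The code was tested on simulated data. Summaries used Python 3.11.15, pandas 2.3.3, numpy 2.4.6, scipy 1.17.1 and matplotlib 3.10.9.

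Genes were named by rule: the 12 largest rises and falls among called genes without overlap and with a mean of at least 10 FPKM in 1 group, anchor genes of each list, and up to 4 called members of each list with the smallest adjusted p. The genes and lists were chosen with earlier results of these data known. Lists were described by counts and medians, without a test. Alternatives were other scalings, filters and pseudocounts, GC and length corrections, a replicate block, 1 fit of all 18 libraries and leaving out libraries. Genes without a row (among them NEUROD1, INSM1, CD3E, HBB and 5 histone genes) were not analysed here. Some other genes that the rule names are not reported here.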

Additional observations from a re-analysis of the deposited data

Results flagged for a closer look

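The response of H446 to 10 Gy differed from that of another line, by a test of the difference itself (limma, adjusted p under 0.05), in 13 of 16 comparisons of 8 genes. Of all 13071 genes, 34.6% differed from A549 and 22.7% from BEAS-2B, and the 8 genes were chosen with earlier results of these data known. Values are differences in log2 fold change, H446 minus the other line. Against A549 they were 0.416 for CCNB1, 0.795 for PLK1, 0.812 for AURKA, -0.299 for CDC6, -1.03 for CCNE2, -1.67 for CDKN1A and -1.87 for MDM2. Against BEAS-2B they were 0.698 for CCNB1, 0.433 for PLK1, 0.685 for AURKA, -0.645 for MCM2, -0.829 for CCNE2 and -1.68 for CDKN1A. When BEAS-2B 10 Gy replicate 2 was left out, these 6 were 0.541, 0.376, 0.5504, -0.485, -0.795 and -2.32. These are a description, since this library stood apart in several of the genes. The 3 comparisons that missed the threshold were MCM2 against A549 (-0.181) and CDC6 and MDM2 against BEAS-2B (-0.208 and -1.24). The call of CCNB1 against A549 was lost without A549 10 Gy replicate 1 or 3, A549 control replicate 2 or H446 10 Gy replicate 2 (adjusted p = 0.0535 to 0.0663). After the GC correction CDKN1A against BEAS-2B missed the threshold (-1.47, adjusted p = 0.0537).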

How the results depend on the processing

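Without replicates from stated cultures and without read counts, neither biological spread nor counting error can be separated, and genes near 1 FPKM are limited by depth. The replicate numbers do not pair the libraries (correlations of same-numbered deviations 0.19, 0.01 and 0.082). With the replicate block, 4288 genes were called (1611 higher, 2677 lower), 4115 of them shared with the fit without it, and the differences from A549 and BEAS-2B had 4655 and 3324 calls. The block turned CDKN1A into a called fall (-0.125, adjusted p = 0.0365) and took MDM2, H446 minus BEAS-2B, past the threshold (-1.24, adjusted p = 0.0381). With the spread of all 18 libraries in 1 fit, 3228 H446 genes were called (1186 higher, 2042 lower), mitotic genes were higher in 84 and lower in 6, replication genes higher in 4 and lower in 38, and 26 named genes lost their call. At an adjusted p under 0.01, 2529 genes were called (957 higher, 1572 lower), and 20 had an absolute log2 fold change of at least 1 (7 higher, 13 lower). Lower calls numbered 1703 with the GC correction, 1805 with GC and length correction and 1545 with GC correction and replicate block. Under these 3 corrections 3 replication genes were higher, and the mitotic median was 0.515, 0.516 and 0.515. The replication median was -0.268 after quantile normalization, -0.261 with equal totals and -0.292 with a pseudocount of 0.1. ISG15 reversed to 0.154 (adjusted p = 0.0486) with GC correction and replicate block. The cause was not tested.

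Leaving out 1 H446 library at a time gave 3222 to 4701 calls (1193 to 1777 higher, 2029 to 2924 lower). Mitotic genes were higher in 82 to 85 and lower in 4 to 7, with medians of 0.529 to 0.566. Replication genes were lower in 37 to 42 and higher in 3 to 7, with medians of -0.302 to -0.254, and 3 were higher without H446 control replicate 2 or 10 Gy replicate 3. The difference from A549 had 3857 to 4351 calls (1711 to 1889 higher, 2121 to 2462 lower). The difference from BEAS-2B had 1814 to 4534 (700 to 1895 higher, 1114 to 2639 lower), with 1814 (700 higher, 1114 lower) without BEAS-2B control replicate 1, 4534 (1895 higher) without BEAS-2B 10 Gy replicate 3 and 782 higher without H446 10 Gy replicate 3. With the GC correction it had 1367 (739 higher, 628 lower), and 1445 (694 higher, 751 lower) when BEAS-2B 10 Gy replicate 2 was also left out, an alternative added after seeing the data.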
